A study of Mus musculus with 12 samples.

Results

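The regions described here are stretches of CpG-poor DNA at the start sites of protein-coding genes that carried more modified cytosine in retinas without TET enzymes than in control retinas. They were chosen by their position and by their WGBS values: a region of the whole-genome bisulfite sequencing (WGBS) list on 1 of 19 autosomes was a member where it held the start of a protein-coding transcript, held fewer than 5 CpGs per 100 bp, had a level from 20 to below 80% in controls, and had a higher level in the mutant with a rise below 40 percentage points. This rule found 1110 of 193836 WGBS regions, which hold start sites of 1060 genes. The retinas were taken whole at postnatal day 21. Controls (Cre-, labelled WT, on C57 BL/6J) came from Cre-negative breeders, and mutants (Tet tcKO) carried floxed alleles of Tet1, Tet2 and Tet3 that were deleted in retinal progenitors by Chx10::Cre-GFP, a transgene known to act in a mosaic of cells, for which Cre-positive animals were bred to each other so that offspring carried more than 1 copy. WGBS and bACE-seq were each run on 3 libraries per genotype, made from pooled retinas of more than 1 animal, but the lists give 1 mean level per group and region, so no spread between replicates and no read depth stand behind any level below, and no test between genotypes could be made.

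CpG islands cover the starts of most housekeeping genes and are kept free of methylation in nearly all cells. Genes used by a single tissue or cell type often start outside islands, in DNA whose few CpGs are methylated in most cells and lose that mark in the cells that transcribe the gene. TET enzymes take part in that loss by oxidising 5-methylcytosine (5mC) to 5-hydroxymethylcytosine (5hmC), which is abundant in neurons. WGBS reads 5mC and 5hmC together, and bACE-seq, in which bisulfite converts unmodified cytosine and a deaminase then converts 5mC, reads 5hmC alone. In whole retina a level is an average over all cells, so a change in the mix of cells and a change within cells cannot be told apart.

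The starts of genes for the rod, the light-sensing cell that makes up most of the mouse retina, were among the regions with the largest area statistic, and their bases show what a CpG-poor start looks like. Each sequence runs 5′ to 3′ along the gene from 250 bases before to 50 bases after the RefSeq start (GRCm38.p6), with every CpG in capitals. Ctbp2 lies at chr7:133015198-133015497 (- strand), Grk1 at chr8:13404831-13405130 (+ strand), Nr2e3 at chr9:59950030-59950329 (- strand), Sag at chr1:87803430-87803729 (+ strand), Pde6b at chr5:108388123-108388422 (+ strand) and Nrl at chr14:55524203-55524502 (- strand). All of these windows lay inside a member region.
Ctbp2: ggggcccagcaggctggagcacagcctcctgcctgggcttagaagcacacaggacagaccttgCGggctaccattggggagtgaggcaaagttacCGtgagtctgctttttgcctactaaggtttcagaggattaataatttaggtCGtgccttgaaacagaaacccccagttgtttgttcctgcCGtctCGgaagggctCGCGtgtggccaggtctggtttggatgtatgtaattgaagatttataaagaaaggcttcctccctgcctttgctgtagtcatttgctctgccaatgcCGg
Grk1: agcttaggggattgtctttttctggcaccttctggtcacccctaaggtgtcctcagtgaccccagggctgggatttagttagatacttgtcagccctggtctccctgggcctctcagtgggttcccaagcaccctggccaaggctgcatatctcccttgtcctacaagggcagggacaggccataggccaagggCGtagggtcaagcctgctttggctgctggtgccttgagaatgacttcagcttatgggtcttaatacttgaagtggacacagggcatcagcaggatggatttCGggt
Nr2e3: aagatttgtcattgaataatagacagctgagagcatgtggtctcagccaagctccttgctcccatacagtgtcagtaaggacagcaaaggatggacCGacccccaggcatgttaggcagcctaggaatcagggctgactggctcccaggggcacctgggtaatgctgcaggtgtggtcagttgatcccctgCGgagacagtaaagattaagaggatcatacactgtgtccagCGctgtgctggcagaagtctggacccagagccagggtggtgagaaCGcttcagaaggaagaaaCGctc
Sag: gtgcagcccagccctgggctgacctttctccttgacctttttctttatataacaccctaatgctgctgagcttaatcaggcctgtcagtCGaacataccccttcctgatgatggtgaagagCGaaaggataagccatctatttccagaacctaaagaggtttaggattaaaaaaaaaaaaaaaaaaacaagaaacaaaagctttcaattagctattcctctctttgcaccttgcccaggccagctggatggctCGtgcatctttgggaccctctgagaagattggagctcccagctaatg
Pde6b: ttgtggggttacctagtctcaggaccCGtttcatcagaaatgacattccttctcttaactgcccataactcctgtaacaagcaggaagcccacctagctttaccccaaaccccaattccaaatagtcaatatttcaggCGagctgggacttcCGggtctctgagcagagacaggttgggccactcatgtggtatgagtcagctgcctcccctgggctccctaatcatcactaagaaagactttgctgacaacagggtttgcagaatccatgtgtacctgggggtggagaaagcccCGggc
Nrl: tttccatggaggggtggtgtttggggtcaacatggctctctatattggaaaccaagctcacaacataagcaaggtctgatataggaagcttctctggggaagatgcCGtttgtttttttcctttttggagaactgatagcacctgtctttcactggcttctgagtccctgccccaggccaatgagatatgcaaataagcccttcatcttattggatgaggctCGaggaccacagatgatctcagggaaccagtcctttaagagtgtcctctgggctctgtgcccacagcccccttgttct
The window of Ctbp2 held 8 CpGs, that of Nr2e3 5, that of Pde6b 4, that of Sag 3 and those of Grk1 and Nrl 2 each. Over the 1468 start sites that lay in a member, the median was 6 CpGs per 300-base window, against 13 over all 39627 autosomal protein-coding start sites. Windows under the density limit made up 97.5% of the former and 52.4% of the latter, a difference that follows from the rule. The rule counted CpGs over the whole region, so a window inside it could be dense.

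Of the 1784 autosomal regions holding such a start, 1738 were higher in Tet tcKO, and 46 were lower, of which 9 were CpG-poor. Of the 1738 gains, 1386 were CpG-poor, and 1142 of these had a Cre- level in the chosen window. The rise limit removed 32 more. Among all start sites, 5.79% lay in a WGBS gain of any kind, and among CpG-poor start sites 9.09% did. The 1060 genes with a member were 5.09% of the 20807 autosomal protein-coding genes, and the share was 8.16% among genes with at least 1 CpG-poor start. By chromosome the share of genes ran from 3.41% on chromosome 7 to 6.75% on chromosome 5.

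The middle member was 660 bp long with 15 CpGs, and its modified share was 50.2% in controls and 71.9% in mutants. The median rise was 17.0 percentage points, with the 10th and 90th percentiles at 11.2 and 29.3 points. These levels chose the members and are given as a description. Over all 188451 autosomal WGBS gains the median levels were 64.2% and 82.3%, and the median rise was 15.3 points. In the plot of both levels, many of the regions at photoreceptor genes lie near the upper edge that the rule sets, and the 52 regions that met every other condition but were CpG-dense lie closer to the line of equal levels, with a median rise of 10.2 points.

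**Figure D1:**
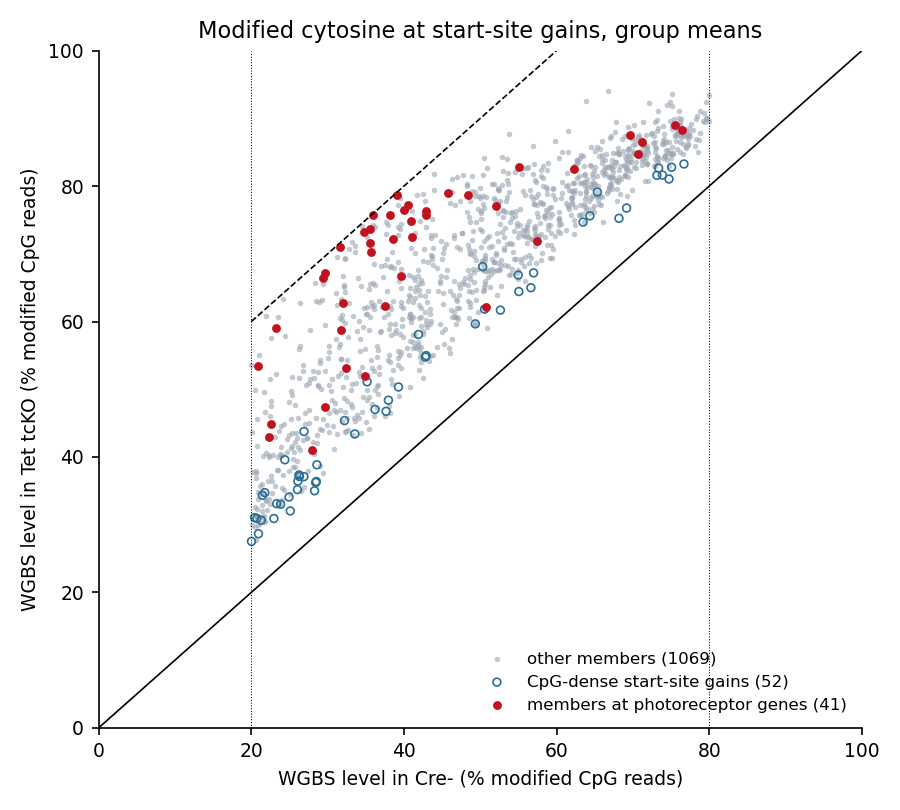
WGBS level of each region in Cre- (x axis) and Tet tcKO (y axis), in percent of reads modified at CpGs, each point the authors' group means of 1 region. Grey points are members, red points the 41 members at genes of 6 photoreceptor lists, and blue rings the 52 CpG-dense start-site gains; the solid line marks equal levels, the dashed line the limit of 40 points and the dotted lines the limits of 20 and 80%.

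The limits cut through continuous distributions. Gp1bb, with 4.99 CpGs per 100 bp, was just inside the density limit, and Gm3285, with 5.0, was just outside. Fam57b at 20.0% in Cre- was the member nearest the lower level limit, and Arap1 at 19.97% was left out. Mcf2l at 79.96% was inside the upper limit, and Rcan2 at 80.1% was not. Ctbp2, with a rise of 39.8 points, was the largest rise kept, and Slc1a7, a glutamate transporter gene with a rise of 40.1 points, was the nearest one left out.

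Rod phototransduction turns the capture of a photon into the closing of a cation channel through transducin and a cGMP phosphodiesterase. Of 18 genes of this pathway on the list, 11 (61.1%) had a member region, beside the 5.09% of all genes, and 4 others had a start-site gain outside the limits of the rule. The median over the regions of the 11 genes was 36.9% in Cre- with a rise of 33.7 points. All 3 subunits of the rod phosphodiesterase had a member. The level of Pde6a, the alpha catalytic subunit, went from 39.1% in Cre- to 78.6% in Tet tcKO over 74 CpGs. That of Pde6b, the beta catalytic subunit, went from 40.01 to 76.5% over 126 CpGs, and that of Pde6g, the inhibitory subunit, from 40.9 to 74.8% over 72 CpGs. The 3 genes lie on different chromosomes, and their levels lay within 2 points of each other in Cre-.

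The subunits of the rod cGMP-gated channel had a like pattern. Cnga1, the alpha subunit, went from 35.6 to 73.7% over 67 CpGs. Cngb1, the beta subunit, had a pair of member regions at different starts of the gene. The larger, with 68 CpGs, went from 31.6 to 71.0%, and the smaller, with 13 CpGs, from 71.2 to 86.6%. The starts of this gene were thus further apart in level in Cre- than in Tet tcKO. Slc24a1, the rod exchanger that removes calcium from the outer segment, had the lowest Cre- level of the pathway's members, 20.9%, and 53.4% in Tet tcKO.

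Gnat1, the rod transducin alpha subunit, went from 32.4 to 53.2% over 145 CpGs, a rise of 20.8 points, below those of the phosphodiesterase subunits. Grk1 and Sag, which take part in ending the response, had larger rises than Gnat1, 37.6 and 33.5 points. Grk1, rhodopsin kinase, went from 38.2 to 75.8% in a region of 8459 bp at chr8:13403433-13411891, and Sag, rod arrestin, from 42.9 to 76.4% in a region of 15143 bp at chr1:87801332-87816474. The neighbouring guanylate cyclase activators had small regions with small rises, Guca1a from 29.6 to 47.4% and Guca1b from 28.0 to 41.1%. Rises at the members of this pathway spanned 13.1 to 39.6 points, where the rule itself kept only rises below 40 points.

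The rule left out 4 rod genes with a start-site gain because their values were beyond its limits. Gngt1, the rod transducin gamma subunit, went from 23.7 to 79.7%, Gnb1, a transducin beta subunit, from 28.0 to 73.8%, and Rcvrn, recoverin, from 31.7 to 72.3%. All 3 rises passed 40 points. Gucy2e, a photoreceptor guanylate cyclase, lay below the level window, at 11.2% in Cre- and 23.4% in Tet tcKO. No listed region held a start of Rgs9, Rgs9bp or Pdc, and absence from the list does not show an equal level.

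The cone list held 9 genes, and 4 (44.4%) had a member. Gnat2, cone transducin alpha, went from 39.6 to 66.7% over 21 CpGs. Gngt2, its gamma partner, had 1 region from 52.0 to 77.1% and another from 50.7 to 62.1%. Pde6h, the inhibitory subunit of the cone phosphodiesterase, went from 62.3 to 82.5% over 8 CpGs, and Opn1sw, the short-wavelength opsin, from 75.6 to 89.0% over 4 CpGs. The cone regions were 424 to 2298 bp long and the rod regions 796 to 16118 bp, and the middle rise of the 5 was 20.3 points. Gnb3 and Cnga3, also on the cone list, had start-site gains below the level window, from 19.1 to 39.5% and from 19.6 to 28.2%. Any start-site gain was found at 6 of the 9 cone genes, where the share of all genes was 7.9%. Whether the rise differed between rod and cone genes was not tested.

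Transcription factors that set photoreceptor identity made up a list of 18, of which 4 (22.2%) had a member, or 2 where only the most upstream start of each gene counted. Nrl, the basic leucine zipper factor that commits cells to the rod fate, went from 35.7 to 70.3% over 94 CpGs. Nr2e3, a nuclear receptor that represses cone genes in rods, went from 34.7 to 73.2% over 141 CpGs. Rxrg and Thrb, nuclear receptors of cones, had short regions with higher Cre- levels, 57.5 and 76.5%, and rises of 14.4 and 11.8 points. Crx, a homeodomain factor of both photoreceptor types, was not a member, with a level of 15.6% in Cre- and 67.7% in Tet tcKO.

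**Figure D2:**
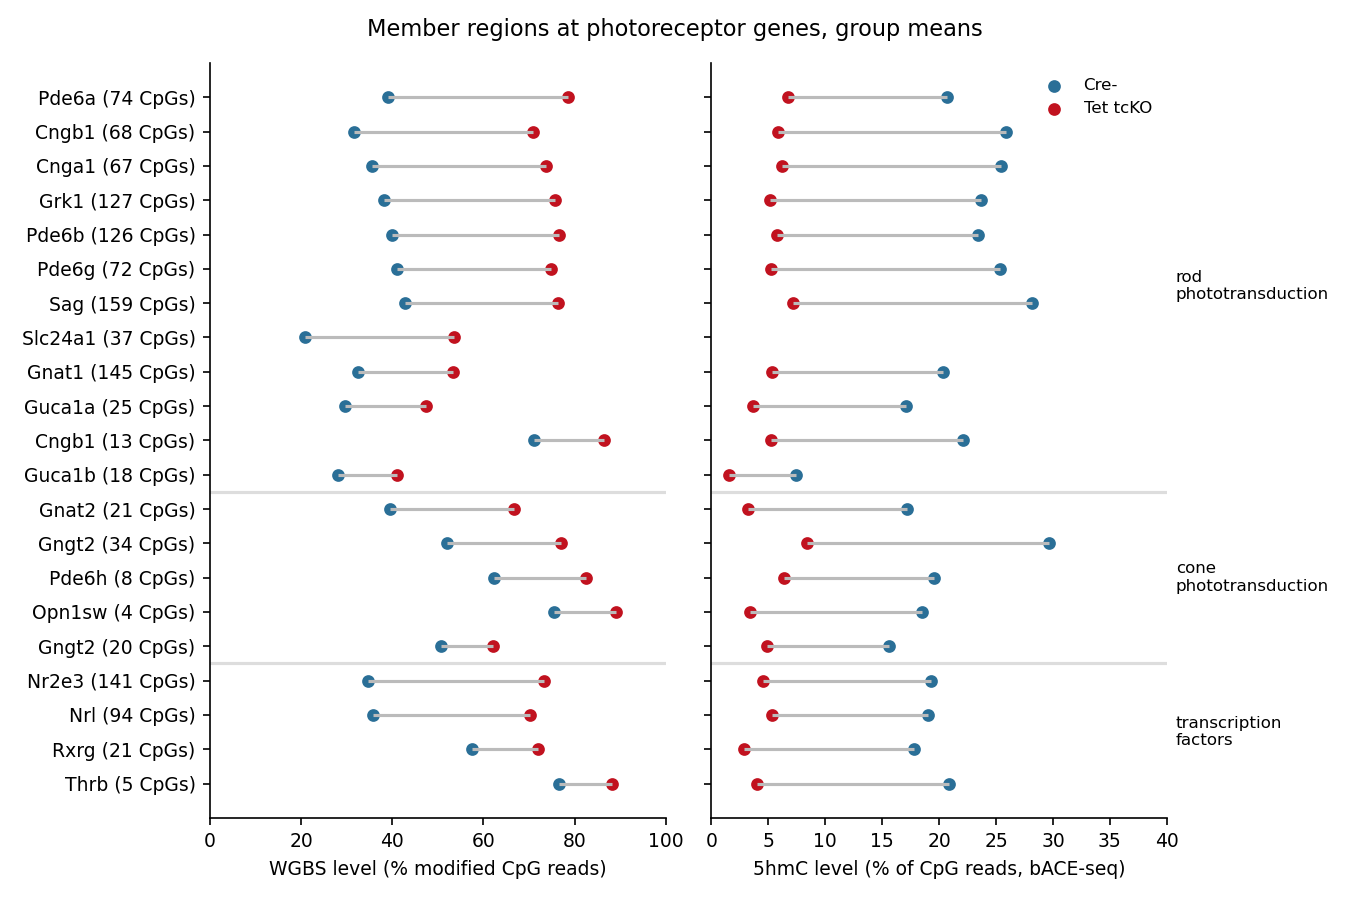
Member regions at genes of rod phototransduction, cone phototransduction and photoreceptor transcription factors, 1 row per region with its number of CpGs. The left panel gives the WGBS level (% of CpG reads modified) and the right panel the 5hmC level (% of CpG reads, bACE-seq). Blue points are Cre- and red points Tet tcKO, each a group mean. The rule sets every WGBS level higher in Tet tcKO. Every 5hmC level is lower, as in nearly all listed bACE-seq regions, and Slc24a1 has no bACE-seq region. At Opn1sw 5hmC losses cover only 0.472% of the member.

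Of 28 outer segment and cilium genes, 12 (42.9%) had a member, with a median rise of 33.2 points. With only the most upstream start of each gene the count was 6, where the share of all genes was 2.79%. Prom1, a membrane protein of the discs, went from 40.5 to 77.2%, and Rp1l1, a microtubule protein of the cilium, from 35.5 to 71.5%. Rpgrip1, which anchors a ciliary GTPase regulator, went from 45.8 to 79.0%, and Impg2, a proteoglycan of the matrix between photoreceptors, from 29.6 to 67.2%. Mak and Nphp4 differed from these, with Cre- levels of 70.6 and 69.6% and rises of 14.1 and 17.9 points.

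At the photoreceptor synapse, where a ribbon holds vesicles at the release site, 8 of 21 genes (38.1%) had a member, or 4 by the most upstream start alone. Ctbp2 had the region with the largest area statistic and the largest rise of all members, from 36.0 to 75.8% over 264 CpGs at chr7:132999306-133016746. The gene has a start far upstream for the CtBP2 repressor and an internal start for Ribeye, the ribbon scaffold, and the region covers an internal start. The other annotated starts lay at -107918 and -108119 bp from it. Cabp4, a calcium-binding protein that sets release, went from 43.0 to 75.8%, and Cacna2d4, a subunit of the presynaptic calcium channel, from 41.0 to 72.5%. Lrit1, a leucine-rich repeat protein of the photoreceptor synapse, went from 29.4 to 66.4%, and Frmpd1 from 48.4 to 78.6%.

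The visual cycle had 1 member gene of 10, Rlbp1, which encodes a retinoid-binding protein and went from 34.9 to 51.9%. The distinct genes of the 6 photoreceptor lists, with the visual cycle counted as 1 of these lists, numbered 103, and 39 (37.9%) had a member. Rlbp1 is thus counted as a photoreceptor gene throughout. Among the 82 of the 103 genes with a CpG-poor start, 38 (46.3%) had a member, beside the 8.16% given above. In 13 of the 103 genes a CpG-poor start-site gain was left out for its rise alone. The lists were written with earlier results for this tissue known, so the counts are a description and not independent evidence.

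Over 5 lists of genes of other retinal cells, 13 of 91 (14.3%) had a member, beside the 5.09% of all genes. Among the 59 with a CpG-poor start, 12 (20.3%) had a member, beside 8.16%. The regions had a median length of 564 bp and a median rise of 19.4 points. The 2 amacrine genes among the 13 had no member by the most upstream start alone. Prkca, a kinase of rod bipolar cells, went from 36.8 to 52.2%, and Gpr179, an organiser of the bipolar signalling complex, from 47.9 to 65.6%. Th, which makes dopamine in amacrine cells, went from 59.7 to 78.0%, and Sncg, a synuclein of ganglion cells, from 64.6 to 85.8%. Of the Müller glia genes, Clu went from 28.2 to 51.6% and Gfap from 60.6 to 78.2%. No horizontal cell gene of 10 had a member, and 6 of these had a CpG-poor start. Beside the 5.09% of all genes, that count does not set them apart.

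Genes of cells outside the neural retina and of other tissues were also present, 10 of 61 (16.4%) over 4 lists, beside the 5.09% of all genes. Among the 56 with a CpG-poor start, 10 (17.9%) had a member, beside 8.16%. Cdh5, the endothelial cadherin, went from 70.9 to 86.6%, and Rgs5, a pericyte gene, from 35.7 to 54.3%. P2ry12, a receptor of microglia, was the only member gene of the 18 on the microglia and blood list and went from 52.3 to 73.1%. Crystallins of the lens included Crygc at 56.2 and 73.3% and Cryab at 63.9 and 76.8%. None of 21 genes of the DNA methylation machinery had a member, and 10 of them had a CpG-poor start. Beside the 5.09% of all genes, this count does not set them apart from other genes. In the plot of gene lists, the rod, cone, outer segment and synapse lists have the highest shares, and the vascular and crystallin lists reach 21.4 and 23.5%, near the bipolar list at 24.0%.

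**Figure D3:**
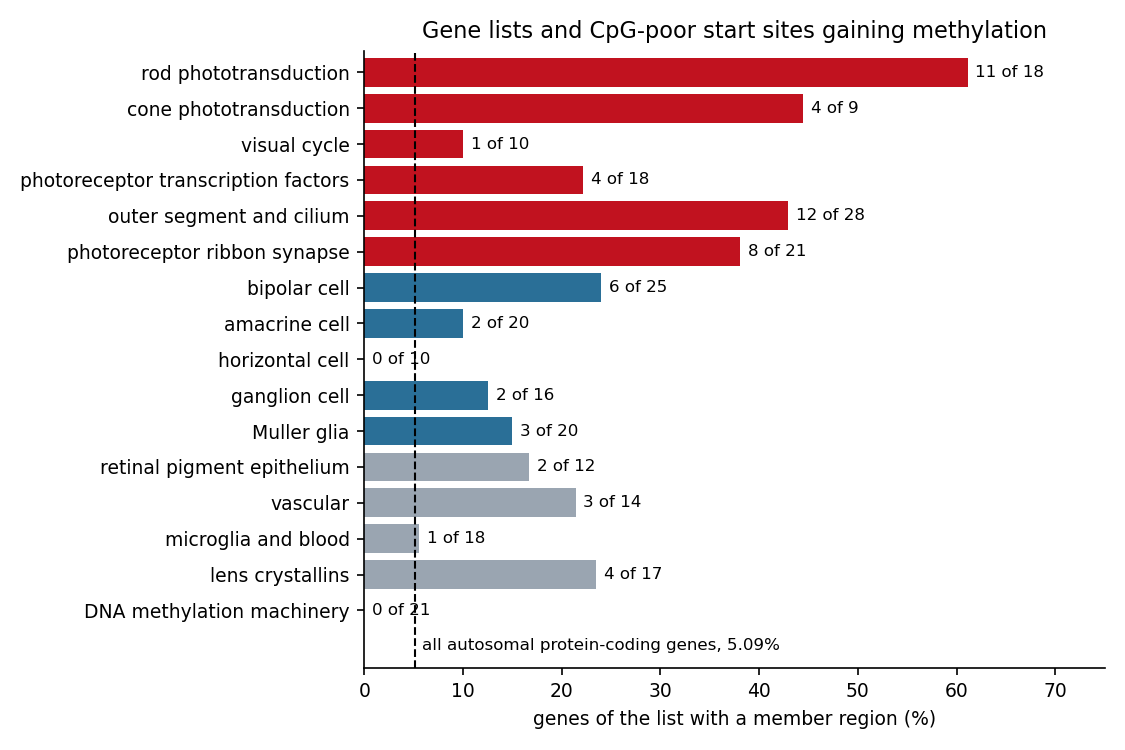
Share of the autosomal genes of each list with a member region (x axis, %), with the number of genes at each bar. Red bars are photoreceptor lists, blue bars other retinal cells and grey bars other lists; the dashed line marks the 5.09% of all autosomal protein-coding genes.

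CpG-poor starts are common in large families of genes that are known mainly from other tissues. Of 1127 olfactory receptor genes, all with a CpG-poor start, 8 (0.71%) had a member. Vomeronasal receptors had 0 of 326, beta-defensins 0 of 42 and cytochrome P450 genes 1 of 100. Keratins had 4 of 53 (7.55%), keratin-associated proteins 4 of 57 (7.02%) and kallikreins 2 of 26 (7.69%). These shares lay above the 5.09% of all genes but below the 8.16% of genes with a CpG-poor start. Interleukins had 6 of 37 (16.2%) and S100 proteins 3 of 15 (20.0%). Potassium channel genes had 12 of 91 (13.2%), among them Kcnj14 and Kcnj13, and solute carriers had 23 of 358 (6.42%). The part of CpG number per window in these counts was not tested.

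Of the 1110 members, 77 (6.94%) were at least 3 kb long, against 0.421% of the 140007 CpG-poor gains that met the level limits but held no start site. A long region is more likely to hold any given point, and the part of that in the difference was not tested. Photoreceptor genes accounted for 21 of the 78 genes with such a region, and the 41 regions at photoreceptor genes had a median length of 3417 bp and a median rise of 30.7 points. Agpat3, an acyltransferase of phospholipid synthesis, had the longest region, 22739 bp at chr10:78286779-78309517, which went from 42.5 to 78.8% over 231 CpGs. Plekhb1, a membrane-binding protein abundant in photoreceptors, went from 41.5 to 70.2% over 10553 bp.

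Distances were taken from the most upstream start of each gene inside the region. Where a region held several starts, this choice by itself shortened the upstream side, and its part in the values was not tested. Around that start, the middle region extended 259 bp upstream and 323 bp downstream, and 630 of 1119 pairs of region and gene (56.3%) reached further downstream. Among regions of at least 3 kb, 55 of 78 pairs did, with medians of 1418 bp upstream and 3412 bp downstream. Pde6b reached 423 bp upstream and 15694 bp downstream, and Sag 2348 and 12794 bp. Introns of protein-coding genes made up 63.4% of the bases of the members, and their exon bases without coding sequence 13.6%. Coding sequence made up 8.24% and sequence outside protein-coding genes 14.7%.

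Within the limits of the rule, which used the rise and the CpG density, the following values are a description only. Split into 4 equal groups by length, the members had a median rise of 13.998 points in the shortest group and 23.3 points in the longest. In the sparsest of 4 groups by density, with a median of 1.27 CpGs per 100 bp, the median rise was 23.4 points, against 13.5 points in the densest. Src, a tyrosine kinase gene, was among the smallest rises, from 20.6 to 27.7% at 4.05 CpGs per 100 bp, and Gstp2 had the smallest, from 78.6 to 85.0%. Gpsm1, a regulator of G protein signalling, had a rise of 39.6 points at 1.16 CpGs per 100 bp.

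The bACE-seq list was not used to choose the members and gives 5hmC in regions that overlap them but have edges of their own. A 5hmC loss, a bACE-seq region lower in Tet tcKO, overlapped 1016 of the 1110 members (91.5%, exact 95% binomial interval 89.7 to 93.1%, which covers counting error only), beside 81.7% of all autosomal WGBS gains. The share was 84.4% in CpG-poor gains without a start site and 84.6% in the CpG-dense start-site gains. It moved with length, from 80.9% in the shortest of 4 equal groups of members to 99.3% in the longest, and the median member was 660 bp long against 381 bp over all gains. The part of length in the difference was not tested. No member overlapped a region higher in Tet tcKO, but only 209 of 592906 bACE-seq regions were higher, and a listed region is by construction one that differed.

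In the overlapping bACE-seq regions 5hmC averaged 20.0% in controls, each region counted by its CpGs, and 5.24% in Tet tcKO, so 26.2% was kept, before any allowance for unconverted cytosine, which also reads as 5hmC. Over all autosomal gains it was 18.9 and 4.83%, with 25.5% kept. Each bACE-seq region entered with its mean over all its CpGs, also where it ran past the member. Weighted by overlapping bases, the Cre- level of the members was 19.95%. With the members split in 4 equal groups by length, density or Cre- level, the median share kept ran from 24.5 to 26.4%. The 5hmC level of controls was higher in the sparsest group, with a median of 22.8%, than in the densest, with 14.1%.

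**Figure D4:**
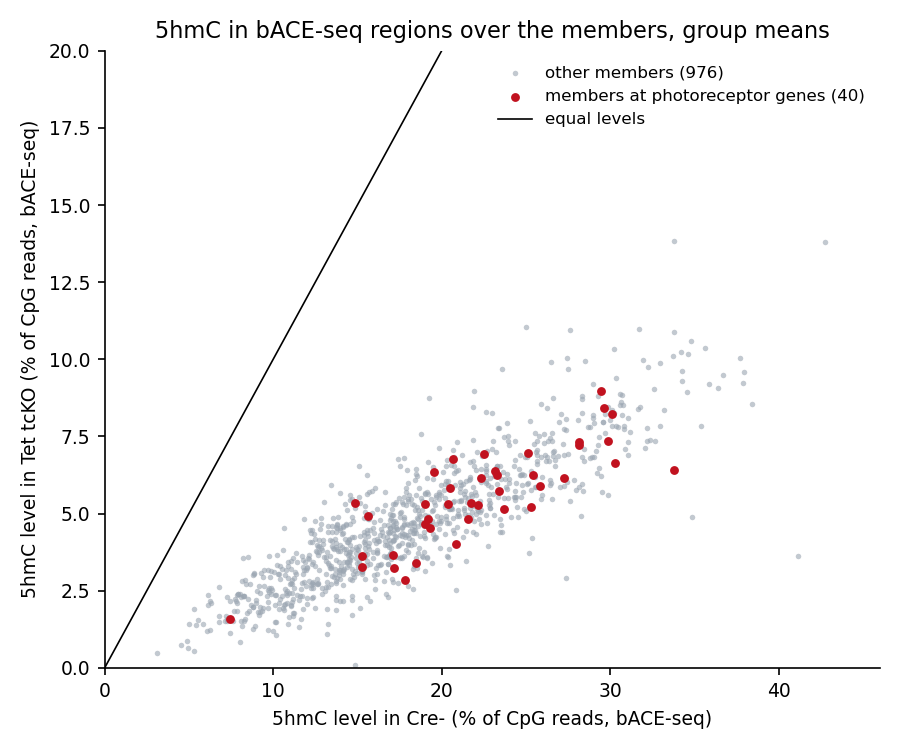
5hmC level in Cre- (x axis) and Tet tcKO (y axis), in percent of CpG reads, for the 1016 members that overlap a bACE-seq region, each point the CpG-weighted group means over those regions. Red points are the 40 members at photoreceptor genes, and all points lie below the line of equal levels.

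Taking 5hmC from the WGBS level leaves an estimate of 5mC, although the 5hmC level comes only from the bases that a bACE-seq region covers. Over the members this remainder went from 25.8% in Cre- to 62.3% in Tet tcKO, and over all gains from 39.2 to 70.8%. 5hmC made up 43.7% of the modified cytosine of the members in Cre-, against 32.6% over all gains. That share is taken over the WGBS level, which the rule used and which was 45.8% in the members and 58.1% over all gains, so the difference in share carries the choice of the members and supports nothing. In Tet tcKO the share was 7.76%. In 809 members (72.9%) 5hmC losses covered at least 50% of the bases. At Ctbp2, where they covered 59.9%, 5hmC was 30.1% of reads in Cre- and 8.22% in Tet tcKO, and the remainder went from 5.88 to 67.6%. At Thrb, covered in full and with a high Cre- level, it went from 55.6 to 84.3%. There the member held 5 CpGs and the bACE-seq region over it 34.

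The highest 5hmC levels were at genes outside the photoreceptor lists. Enah, an actin regulator, had 42.8% in Cre- and 13.8% in Tet tcKO. Kif2a, a kinesin that takes apart microtubules, had 41.2 and 3.62%, from a single bACE-seq region of 6 CpGs that touches the member at its edge. Efr3a had 38.4 and 8.54%, Zranb1 37.9 and 9.58%, and Pcbp2, an RNA-binding protein, 37.9 and 9.23%. At Pcbp2 the WGBS level minus the 5hmC level was -1.73 points in Cre-, which shows the limit of subtracting lists of different extent.

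No bACE-seq region overlapped the other 94 members. Slc24a1 was the one with the largest area statistic, followed by the region shared by Gm20425 and Trf, which went from 52.7 to 69.1%. Crocc2 went from 26.7 to 52.7%, Cdk2ap1 from 23.5 to 60.7% and Siah3 from 20.8 to 33.8%. Their absence from that list does not show equal 5hmC.

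Within the large regions 5hmC was not even. At Grk1 the bACE-seq region from -1775 to -802 bp of the start had 33.4% 5hmC in Cre-, and the region over the start had 16.5%. At Ctbp2 the region from -1909 to -913 bp of the start had 40.9%, and small regions 188 to 296 and 1498 to 1783 bp after it had 9.75 and 8.40%. At Nr2e3 the region over the start had 16.8%, and the region from -5168 to -3518 bp of it 29.5%. The maps of these genes show each called region at its distance from the start.

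**Figure D5:**
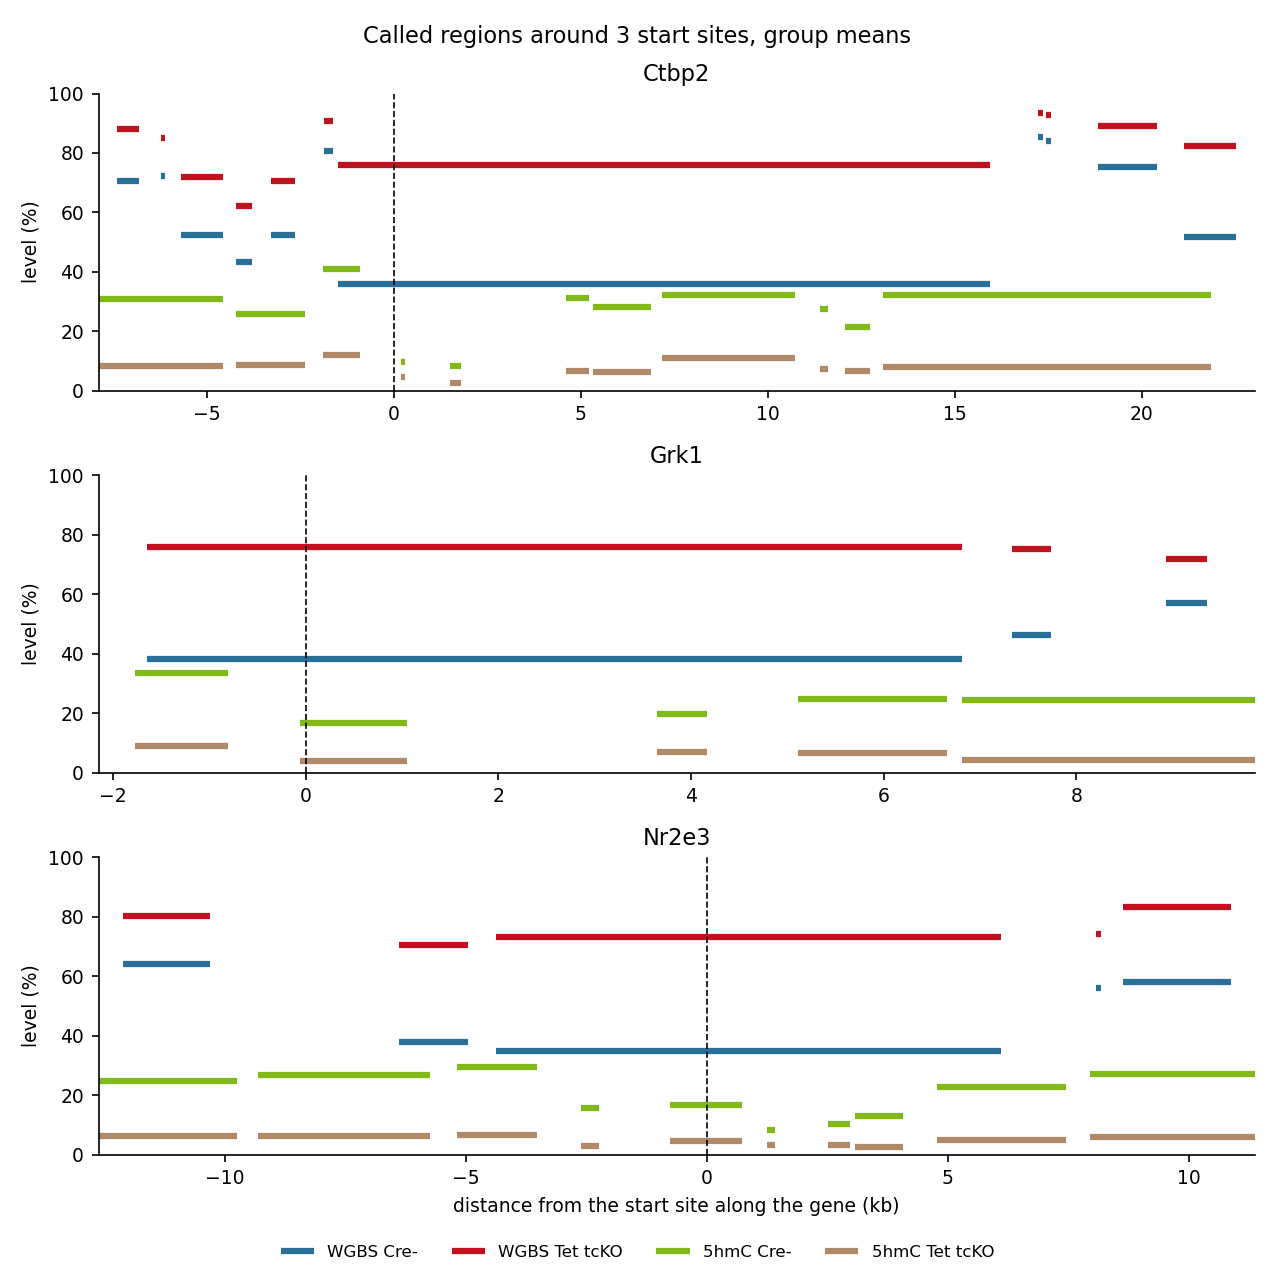
Called regions around the starts of Ctbp2, Grk1 and Nr2e3, with the distance from the start along the gene in kb on the x axis and the group mean level in percent on the y axis. Blue and red bars are WGBS levels in Cre- and Tet tcKO, green and brown bars 5hmC levels in Cre- and Tet tcKO; the dashed line marks the start site, and gaps hold no called region.

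Many of these genes had another start that no WGBS region covered. Of the 1060 genes, 641 (60.5%) did, with 1448 such start sites. The exact 95% binomial interval, 57.5 to 63.4%, covers counting error only. No such share was taken over all genes, and only 5.79% of all autosomal start sites lay in a WGBS gain. The count therefore does not set the members apart from other genes. Against 13 over all autosomal start sites, the windows of these further starts held a median of 14 CpGs. In 382 genes at least 1 of these starts was CpG-dense. In 579 genes (54.6%) the most upstream start lay in a member. Frmpd1 had starts with 4 and 46 CpGs in their windows, and Thrb with 2 and 40. Nr2e3, Sag, Grk1 and Pde6b had a single annotated start each, as did 297 of the genes in all.

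Short sequence motifs were counted in the 300-base windows on both strands. TAATCC, the core that Crx and Otx2 bind, was in 11.7% of the windows at member starts, 7.01% of all windows and 9.67% of CpG-poor windows. In the 61 windows of photoreceptor genes it was in 29.5%. With 1 window per gene it was in 14 of 39 genes (35.9%), against 12.5% of member genes and 7.27% of all genes. AGGTCA, a nuclear receptor core, was in 36.1% of the photoreceptor windows and 14.1% of all windows, and its 18.9% of member windows was close to the 18.7% of CpG-poor windows. TGCTGA, part of the site of Nrl and other Maf factors, was in 28.5% of member windows, 22.1% of CpG-poor windows and 17.4% of all windows. GGGCGG, the GC box, holds a CpG itself and was in 279 of the 1468 member windows, in 17.4% of CpG-poor windows and in 45.9% of all windows. Of the other motifs searched, AAGTCA was in 17.2% of member windows, 18.3% of CpG-poor windows and 13.1% of all. CANNTG was in 78.6, 77.5 and 68.0% of these, and CCAAT in 31.7, 38.5 and 36.5%. TATAAA, the TATA box, was in 220 of the 1468 member windows and 11.8% of all, below its 18.7% of CpG-poor windows. In the 61 photoreceptor windows TGCTGA was in 29.5%, AAGTCA in 16.4%, TATAAA in 9.84%, CANNTG in 70.5%, CCAAT in 37.7% and GGGCGG in 4.92%. With 1 window per gene TGCTGA was in 16 of 39 photoreceptor genes (41.0%), against 28.9% of member genes. In the sequences above, TAATCC lies on the opposite strand at position -87 of Sag and -121 of Ctbp2, and TGCTGA at -8 of Pde6b. A match is a run of letters and not a measured site, and windows of 1 gene can overlap.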

How the data were processed

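Genomic DNA of whole retinas was profiled by WGBS and bACE-seq, with 3 libraries per genotype and assay. By the methods of the study, reads were trimmed (TrimGalore 0.4.4_dev) and aligned (Bismark 0.18.2, mm10), and the authors kept a mapping quality of at least 10, extracted CpG levels with MethylDackel (0.6.1) and called regions with DSS (2.48.0) at p below 0.01 per CpG. DSS smooths levels along the genome, so region edges are less exact than levels.

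Each deposited group mean is a fraction of reads that were modified, printed as percentages. The authors' area statistic is a score and served to rank regions and, in 1 alternative, to filter them. The deposited difference column was not used. The order of the groups follows the name of each list. The lists hold 1 mean per group, so replicate spread and depth were not analysed here and p-values were not computed. Start sites came from GENCODE M21 basic. All WGBS regions began on the C of a CpG of GRCm38 (mm10), and the listed number of CpGs equalled the reference in 98.8% of members. Overlap needed 1 bp, and 5hmC levels were means over whole overlapping bACE-seq regions, weighted by CpGs. Promoter windows came from RefSeq (GRCm38.p6), matched by symbol, with no entry used for Gnat1 and Rp1l1. Python 3.11.15, pandas 2.3.3 and scipy 1.17.1 were used, and the scripts were tested on simulated regions.

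The genes named were the 10 members with the largest absolute area statistic, the 5 with the largest and the 5 with the smallest rise, the 5 with the highest 5hmC level and the 5 without a bACE-seq region with the largest area statistic, up to 4 genes per list, and the regions nearest each limit of the rule. All others named were picked with their values in view. The members and lists were chosen with earlier results of these data known. A few genes are not reported here. The alternatives were other limits of the rule, other overlaps, weights and start sites. Photoreceptor gene counts under these, and a second subtraction of background from 5hmC, were added after seeing the data.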

Additional observations from a re-analysis of the deposited data

How the results depend on the processing

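No paired analysis was possible because the lists hold group means, and leaving out single replicates was not run for the same reason. Of 103 alternative values for 13 results, 76 stayed within the limits set for a change and 27 moved. Taking the most upstream start of each gene alone gave 573 regions at 579 genes, with a median rise of 16.3 points, a share with a 5hmC loss of 89.5%, a Cre- 5hmC level of 17.8% and 25.6% kept. By that start alone 6 outer segment, 4 synapse, 2 transcription factor and 0 amacrine genes had a member. With at least 10 CpGs the rise was 17.6 points and the share with a loss 97.2%, and 2 cone genes had a member. A density below 0.03 gave a rise of 18.2 points and 21.6% 5hmC. A mean statistic per CpG past p 0.001 gave 18.2 points and 93.3%. Weighting by CpGs gave a rise of 21.7 points. The share with a loss was 72.9% where losses had to cover at least 50% of the region, 68.3% where the start itself had to lie in a loss and 69.5% with losses of at least 0.1. The median over members was 17.7% for 5hmC in Cre- and 25.6% for the share kept, and subtracting an assumed 1 or 2 points of unconverted cytosine from both levels gave 22.3 and 18.01% kept. Requiring further starts to lie at least 500 bp away gave 55.1% of genes. The causes were not tested, beyond the fewer regions that stricter limits leave. Rod genes with a member numbered 11 under each alternative of the rule, and 15 with any start-site gain. With any start-site gain, 6 cone, 9 transcription factor and 2 visual cycle genes had a region. The counts of list genes and the subtraction of 2 points were added after seeing the data.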
